A study of Rattus norvegicus with 16 samples.

Results

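The fatty acid oxidation module comprised 39 genes, chosen by name: 19 that encode mitochondrial enzymes or transporters, 11 that encode peroxisomal proteins, and 9 that activate, bind or sense fatty acids. On the array, 35 of the 39 had at least 1 probe set (a group of oligonucleotides for a transcript) that the platform's annotation assigns to a single gene symbol, 60 probe sets in all. After the dimmest probe sets were left out, 31 genes remained, represented by 47 of the 5244 probe sets tested: 16 mitochondrial, 9 peroxisomal and 6 for activation and binding. Acaa1a, Phyh, Crat and Etfb had no single-symbol probe set and were not analysed here. Hadh, Acsl6, Fabp1 and Ppara had only probe sets under the brightness limit.

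Kidney RNA of 8 rats was measured on 16 one-colour arrays, 1 per kidney. The right kidney of 2 rats (rats 1 and 5) was given ACTH, adrenocorticotropic hormone, that of 2 rats (rats 3 and 7) was given DEX, an abbreviation the labels do not expand, and that of 4 rats (rats 2, 4, 6 and 8) was given saline. The left kidney of every rat served as its control. The labels state no dose, route, duration, age, sex or strain, so whether a hormone given to the right kidney also reached the left one is not known. The titles name 4 saline rats, whereas the design text states 2 rats per treatment, and the titles were followed.

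Fatty acids are converted to coenzyme A esters before they are burned. Acyl-carnitine transferases carry long chains into mitochondria, where dehydrogenases, hydratases and thiolases shorten them stepwise to feed respiration; peroxisomes shorten very long and branched chains by a parallel set of enzymes and release hydrogen peroxide. The proximal tubule of the kidney depends heavily on this pathway for the energy of solute reabsorption, and the nuclear receptor PPAR-alpha, encoded by Ppara, is its best known transcriptional activator.

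Each deposited value is a signal intensity, not a log. Array medians ran from 76.0 to 82.1. The arrays fell into 2 blocks, those of rats 1 to 4 and those of rats 5 to 8, with a median correlation of 0.975 within a block and 0.939 between blocks; each block held 1 ACTH, 1 DEX and 2 saline rats. The labels name no batch. Of 20 proximal tubule markers 18 were tested, with a summed signal of 28917 to 30472 in right ACTH kidneys, 34631 to 35087 in right DEX kidneys, 30861 to 38036 in right saline kidneys and 30298 to 32935 in left kidneys. A bright marker weighs heavily in this sum: Kap had 2605 and 1842 in right ACTH kidneys, with 4276 and 3617 on the left. The mean log2 value of the 18 markers was 10.11 and 10.05 in right ACTH kidneys, inside the 10.01 to 10.46 of right saline kidneys. The fat markers were uneven between kidneys. The summed signal of the 9 tested of 15 listed fat markers was 13091 in the right kidney of ACTH rat 1 and 1847 in that of ACTH rat 5, against 1143 to 1285 in right DEX kidneys and 1230 to 1616 in right saline kidneys. Among left kidneys ACTH rat 1 had 3403 and ACTH rat 5 had 1259, DEX rat 3 had 2460 and DEX rat 7 had 3096, saline rat 6 had 4134 and the other saline rats had 1088 to 1589; none of the markers was at 0. Thus 5 kidneys stood apart, among them both kidneys of ACTH rat 1 and the left kidneys of both DEX rats, which enter every DEX change. The right kidney of ACTH rat 5 stood apart in collecting duct markers, all 7 of which were tested: their summed signal was 5904 there, against 3418 in the right kidney of ACTH rat 1, 3196 to 3402 in right DEX kidneys, 3689 to 3991 in right saline kidneys and 3164 to 3806 in left kidneys.

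A change is the right minus left difference of log2(signal + 16) within a rat. The ACTH effect and the DEX effect are the mean change under that hormone less the mean change under saline, so that both share the same 4 saline rats. Tests used limma with a term for each rat, and each p was adjusted (Benjamini-Hochberg) across the 5244 tested probe sets, with a threshold of 0.05. They measure the spread between these 8 rats. In whole kidney RNA, fewer cells of a type and less RNA per cell cannot be told apart.

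No fatty acid oxidation gene passed the threshold for the ACTH effect or for the DEX effect. Across the array, 0.496% of the probe sets passed for ACTH and 0% for DEX. The transferases of the carnitine shuttle, Cpt1b and Cpt2, had the largest ACTH effects of the module, and both rose in the right over the left kidney of these rats. The thiolase gene Acaa1b rose in the same comparison, but it was also higher on the right in every DEX and saline rat. In right over left tests, 4 of the 47 member probe sets passed in ACTH rats (8.51%, against 3.57% of all probe sets), and 0 passed in DEX rats and in saline rats (against 0% of all probe sets in each). Cpt1b alone passed the test of ACTH against DEX, 1 of 47 probe sets or 2.13%, against 0.572% of all.

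At an unadjusted p under 0.05, 8 of the 47 member probe sets passed for ACTH (17%, against 9.44% of all tested), 3 for DEX (6.38%, against 2.94%) and 12 for ACTH minus DEX (25.5%, against 12.2%). Right over left, 18 did so in ACTH rats (38.3%, against 18.4% of all), 7 in DEX rats (14.9%, against 5.91%) and 5 in saline rats (10.6%, against 3.74%). Changes of both ACTH rats lay above those of all 4 saline rats in 5 member probe sets (10.6%, against 7.82% of all) and below them in 2 (4.26%, against 7.84%). For DEX the counts were 5 above (10.6%, against 6.08%) and 1 below (2.13%, against 6.33%). The 5 that lay above for ACTH were the 2 of Cpt1b and 1 each of Cpt2, Acads and Hadha (its second probe set), and the 2 below were of Hsd17b4 and Pex2. For DEX, Acadsb, Acsm3, Pex11a (its second probe set), Acsl3 and Acsl4 lay above and Acsl5 lay below.

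By compartment, the median ACTH effect was 0.09 over the 16 mitochondrial genes, of which 11 had a positive effect, and -0.16 over the 9 peroxisomal genes, of which 2 had a positive effect. The median DEX effect was 0.03 over the mitochondrial genes, 10 of them positive, and 0.16 over the peroxisomal genes, 7 of them positive. Over the 3193 genes tested both medians were -0.00, and 49.5% had a positive ACTH effect. The ACTH rats differed from each other: the peroxisomal median change was 0.19 in rat 1 and -0.35 in rat 5, against 0.46 and 0.19 in DEX rats 3 and 7 and between -0.00 and 0.33 in the saline rats. The mitochondrial median change was 0.37 and 0.07 in ACTH rats 1 and 5, against 0.28 and -0.04 in DEX rats 3 and 7 and -0.06 to 0.22 in the saline rats. In rat 5 the mean log2 value of the collecting duct markers changed by 0.68, against -0.03 in ACTH rat 1, 0.00 and 0.11 in the DEX rats and -0.01 to 0.17 in the saline rats; that of the 2 tested of 4 listed blood markers changed by 0.88, against -0.33 in ACTH rat 1, -0.30 and -0.68 in the DEX rats and -0.51 to 0.44 in the saline rats. Their part in the peroxisomal values was not tested. The mitochondrial median ACTH effect was 0.025 without rat 1, 0.38 without rat 5, 0.0058 in rats 5 to 8 alone and -0.020 with the fat score (the mean log2 value of the fat markers) as a covariate. The peroxisomal one was -0.42 without rat 1, -0.19 without rat 5 and -0.30 with that covariate. The difference between the compartments was not tested. Without rat 3 the median DEX effects were -0.12 over the mitochondrial and -0.02 over the peroxisomal genes.

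**Figure D1:**
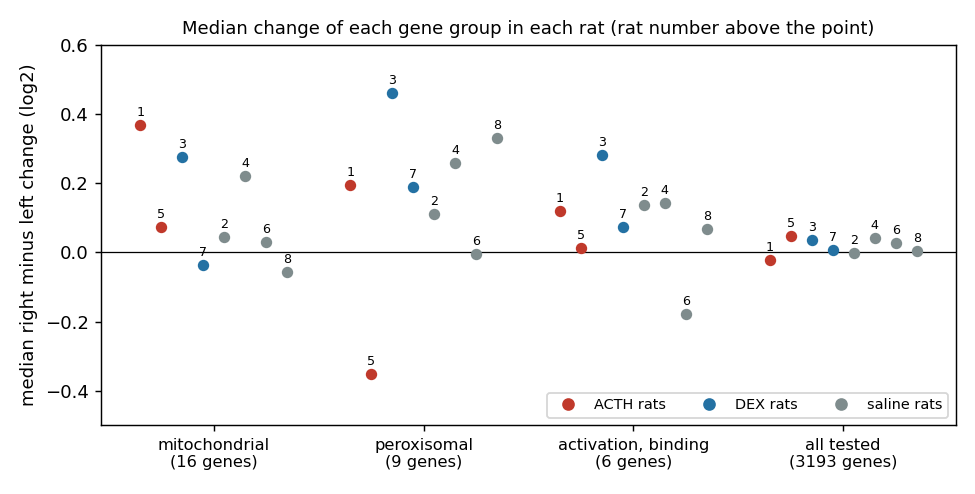
Median right minus left change (log2, vertical axis) of the genes in each group, 1 point per rat with the rat number above it, for ACTH, DEX and saline rats. The peroxisomal median was -0.35 in ACTH rat 5 and 0.46 in DEX rat 3, while the medians of all 3193 genes lay close to 0 in every rat.

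**Figure D2:**
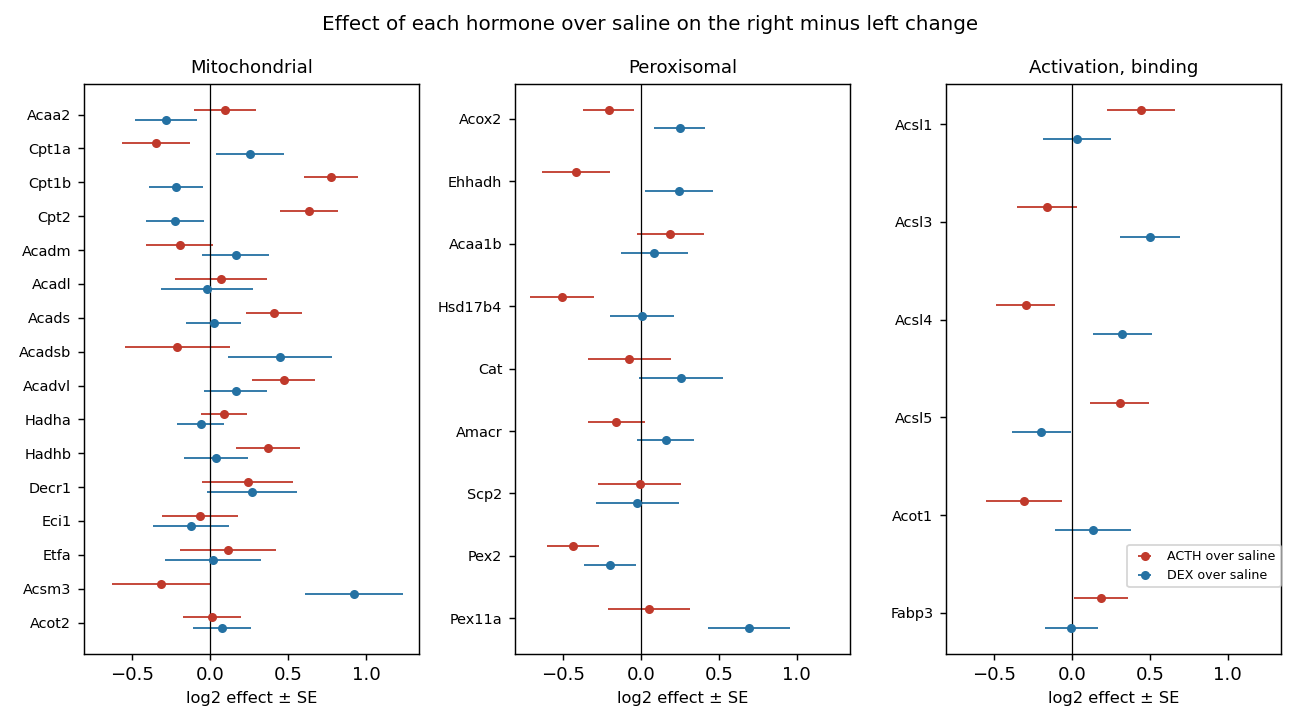
ACTH and DEX effects over saline (log2, with the standard error of the fit as bars) for each of the 31 tested genes by group. Cpt1b (0.77) and Cpt2 (0.63) had the largest ACTH effects, and Acsm3 (0.93) and Pex11a (0.69) the largest DEX effects; none passed the threshold.

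Among the mitochondrial genes, the carnitine shuttle came first in size. Cpt1b encodes the muscle form of the outer membrane transferase, which is also the form of brown fat. Its signal was 412 in the right kidney of ACTH rat 1 and 214 in that of ACTH rat 5, with 189 and 139 in their left kidneys. Right DEX kidneys had 174 and 195, with 207 and 212 on the left. Right saline kidneys had 180, 178, 162 and 193, with 167, 171, 179 and 172 on the left. Both ACTH rats thus lay above all other right kidneys, and both DEX rats were lower on the right than on the left.

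The ACTH effect on Cpt1b was 0.77 ± 0.17 (log2, SE, adjusted p = 0.0752), the DEX effect was -0.22 ± 0.17 (adjusted p = 0.999), and the difference between them was 0.99 ± 0.20 (adjusted p = 0.0489). Right over left, Cpt1b rose by 0.82 ± 0.14 in ACTH rats (adjusted p = 0.00749). The second Cpt1b probe set moved alike: it rose by 1.21 ± 0.23 right over left in ACTH rats (adjusted p = 0.0142), with changes of 1.76 and 0.66 in ACTH rats 1 and 5. Without rat 1 the right over left change of Cpt1b was 0.57 (adjusted p = 0.0699) and the difference from DEX was 0.75 (adjusted p = 0.0800). The difference from DEX also lost the call when any other rat except rat 5 was left out.

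Cpt2 encodes the inner membrane transferase that frees the acyl chain in the matrix. Right ACTH kidneys had signals of 585 and 363, with 270 and 236 on the left of the same rats. Right DEX kidneys had 226 and 266 (left 211 and 298), and right saline kidneys had 234, 268, 257 and 271 (left 206, 198, 261 and 231). The 2 right ACTH kidneys lay above every other kidney. Cpt2 rose by 0.83 ± 0.15 right over left in ACTH rats (adjusted p = 0.0114), while its ACTH effect over saline was 0.63 ± 0.19 (adjusted p = 0.222) and its DEX effect was -0.23 ± 0.19 (adjusted p = 0.999). Without rat 1 the right over left change was 0.59 (adjusted p = 0.0925) and the ACTH effect was 0.39.

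The fat markers and both genes rose most in ACTH rat 1. How they go together over the 8 rats was not tested. The fat marker score, the mean log2 value of the 9 markers, had right minus left changes of 1.77 and 0.43 for ACTH rats 1 and 5, -1.18 and -1.30 for DEX rats 3 and 7, and 0.32, -0.36, -0.996 and 0.25 in saline rats 2, 4, 6 and 8. Ucp1, the uncoupling protein that defines brown fat, had signals of 1119 and 106 in right ACTH kidneys, 53.0 and 98.2 in right DEX kidneys, and 44.6 to 142 in right saline kidneys. Left kidneys had 501 and 62.7 (ACTH), 253 and 788 (DEX), and 64.7, 69.6, 255 and 62.7 in saline rats. The low DEX score changes thus go with high left kidneys, and rat 1 was high on both sides. With the fat score as a covariate the ACTH effect on Cpt1b was 0.44 and that on Cpt2 was 0.33, the difference between ACTH and DEX on Cpt1b was 0.38 (adjusted p = 0.617), and neither the right over left change of Cpt1b (0.53, adjusted p = 0.120) nor that of Cpt2 (0.57, adjusted p = 0.155) passed the threshold. Skeletal muscle, the other tissue rich in Cpt1b, had 1 tested marker of 11 listed, at 78.4 to 90.9 in right ACTH kidneys, 63.3 to 80.3 in right DEX kidneys, 77.8 to 103 in right saline kidneys and 73.6 to 89.9 in left kidneys.

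**Figure D3:**
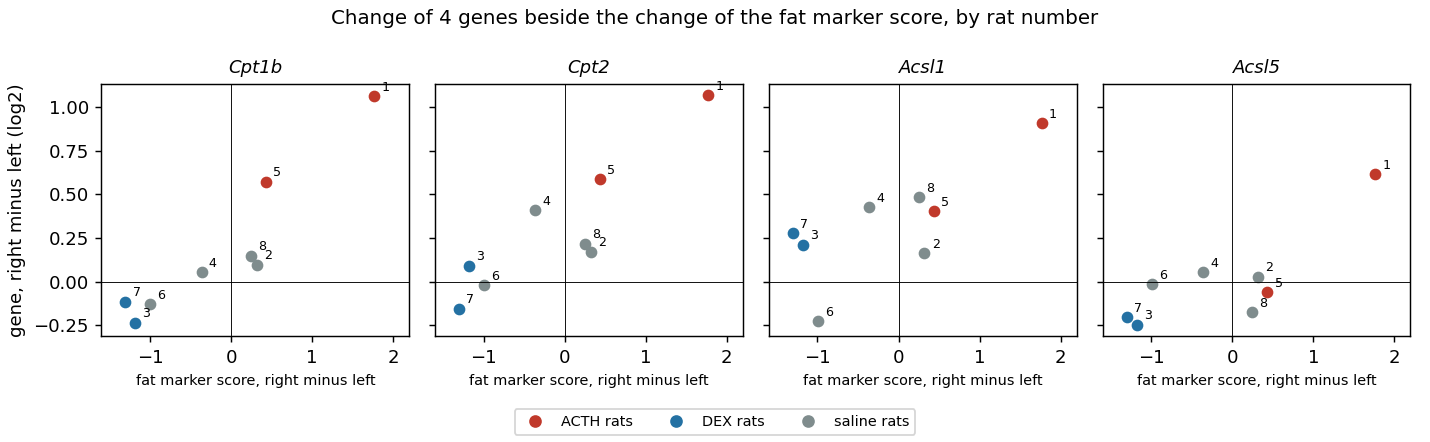
Right minus left change of Cpt1b, Cpt2, Acsl1 and Acsl5 (log2, vertical axis) against the change of the fat marker score (log2, horizontal axis), 1 point per rat with its number. ACTH rat 1 has the highest value on both axes in each panel, with a score change of 1.77.

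Cpt1a encodes the liver form of the outer membrane transferase, which the kidney also uses. Right ACTH kidneys had 363 and 345 (left 519 and 322), right DEX kidneys 544 and 496 (left 400 and 380), and right saline kidneys 526, 519, 364 and 379 (left 552, 378, 397 and 300). The 2 right ACTH kidneys were the lowest of the right kidneys and the 2 DEX rats were higher on the right than on the left. The ACTH effect was -0.35 ± 0.22 (adjusted p = 0.682) and the DEX effect 0.26 ± 0.22 (adjusted p = 0.999), and neither value passed. Both had the opposite sign to the effects on the muscle form. The size of the ACTH effect came mostly from rat 1, whose Cpt1a change was -0.50. Rat 5 was higher on the right for both forms, with a Cpt1a change of 0.10. Leaving out rat 1 brought the ACTH effect on Cpt1a to -0.05.

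The promoters of the members were read from RefSeq, as the 250 bases before the annotated start on build GRCr8, and 26 of the 31 tested genes had an entry. The half-site AGGTCA, to which PPAR-alpha and other nuclear receptors bind in pairs, was searched on both strands. It stood in 6 of the 26 promoters (23.1%), against 14.1% of the 33465 promoters in the table, and a pair of half-sites 1 base apart, with up to 2 mismatches allowed, stood in 4 (15.4%), against 3.15%. A pair can overlap a single half-site. The 4 with a pair were Acadvl, Etfa, Cat and Amacr. The Cpt2 window, chr5:127910819-127911068 on the minus strand, is shown because Cpt2 rose in ACTH rats, and the Acadvl window, chr10:55236706-55236955 on the minus strand, because it held 2 half-sites and a pair. Capitals mark AGGTCA on the strand shown.
Cpt2: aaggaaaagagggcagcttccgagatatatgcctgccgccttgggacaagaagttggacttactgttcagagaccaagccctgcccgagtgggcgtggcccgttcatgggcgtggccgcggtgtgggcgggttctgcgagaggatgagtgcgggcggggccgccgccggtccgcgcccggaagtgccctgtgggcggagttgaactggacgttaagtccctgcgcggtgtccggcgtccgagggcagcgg
Acadvl: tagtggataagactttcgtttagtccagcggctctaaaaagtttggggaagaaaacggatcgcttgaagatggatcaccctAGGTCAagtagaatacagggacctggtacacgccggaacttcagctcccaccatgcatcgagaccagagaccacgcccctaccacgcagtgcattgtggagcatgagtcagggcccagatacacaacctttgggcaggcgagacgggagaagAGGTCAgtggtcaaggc
In the Acadvl window the half-sites lay at positions -169 to -164 and -17 to -12 from the start, and the pair at -17 to -5. No half-site was in the Cpt2 window, which says only that these letters are not there.

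The dehydrogenases that open each round of oxidation differ in the chain length they accept. Acadvl, for very long chains, had 448 and 419 in right ACTH kidneys (left 269 and 321), 295 and 431 in right DEX kidneys (left 223 and 406), and 279, 304, 374 and 350 in right saline kidneys (left 253, 224, 427 and 377). Acads, for short chains, had 298 and 716 in right ACTH kidneys (left 223 and 481), 282 and 402 in right DEX kidneys (left 235 and 423), and 270, 262, 538 and 404 in right saline kidneys (left 231, 272, 450 and 447). Both genes were higher on the right in both ACTH rats; for Acads these changes, 0.40 and 0.56, lay above all saline rats, whereas for Acadvl saline rat 4 (0.42) exceeded ACTH rat 5 (0.37). The ACTH effects were 0.47 ± 0.20 for Acadvl (adjusted p = 0.482) and 0.41 ± 0.18 for Acads (adjusted p = 0.491). Without rat 1 they were 0.30 for Acadvl and 0.49 for Acads.

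Acadsb, which acts on short and branched chains, had 116 and 71.3 in right ACTH kidneys (left 90.6 and 186), 100.5 and 155 in right DEX kidneys (left 80.6 and 138), and 122, 99.8, 84.8 and 148 in right saline kidneys (left 110, 111, 156 and 170). ACTH rat 5 lay outside the others with a change of -1.21, and the DEX effect was 0.45 ± 0.34 (adjusted p = 0.999). Acadm and Acadl, the medium and long chain enzymes, had ACTH effects of -0.20 and 0.07 and DEX effects of 0.16 and -0.02. In Acads every array of rats 1 to 4 (223 to 298) lay below every array of rats 5 to 8 (402 to 716), a split between blocks that the treatments do not follow.

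Hadha and Hadhb encode the 2 subunits of the trifunctional protein, which performs the later steps on long chains. Their genes start head to head on chromosome 6 of GRCr8, with 300 bases between the first base of Hadha (31907801, plus strand) and that of Hadhb (31907500, minus strand), so that the 2 upstream windows share 200 bases. The window is shown because 1 stretch of sequence lies upstream of both subunits. It is read here on the Hadha strand, chr6:31907551-31907800, and held no half-site to mark.
Hadha: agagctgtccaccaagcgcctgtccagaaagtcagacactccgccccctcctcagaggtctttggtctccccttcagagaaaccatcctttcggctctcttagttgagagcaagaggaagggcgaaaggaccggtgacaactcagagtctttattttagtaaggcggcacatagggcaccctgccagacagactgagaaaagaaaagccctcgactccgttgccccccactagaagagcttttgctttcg
The right minus left changes of Hadhb were 0.80 and 0.20 in ACTH rats, 0.33 and -0.00 in DEX rats and -0.05 to 0.36 in saline rats. Those of Hadha were 0.23 and 0.05 in ACTH rats, -0.01 in both DEX rats and -0.06 to 0.15 in saline rats. The other 2 Hadha probe sets gave 0.22 and 1.05 in ACTH rat 1, and 0.34 and -0.00 in ACTH rat 5. The Hadha probe sets thus disagreed in size for rat 1. The ACTH effects were 0.09 ± 0.15 for Hadha (adjusted p = 0.934) and 0.37 ± 0.21 for Hadhb (adjusted p = 0.610), and that of Hadhb was 0.07 without rat 1.

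Acaa2, the mitochondrial thiolase that ends each round, had 1730 and 1289 in right ACTH kidneys (left 1262 and 1004), 1103 and 1146 in right DEX kidneys (left 934 and 1304), and 1185, 1312, 922 and 1598 in right saline kidneys (left 1081, 983, 896 and 1015). It was higher on the right in 7 of 8 rats, DEX rat 7 being the exception, and its DEX effect was -0.28 ± 0.20 (adjusted p = 0.999). The auxiliary enzyme Eci1, an isomerase for unsaturated chains, was also higher on the right in 7 of 8 rats. Its change averaged 0.44 in saline rats and its ACTH effect was -0.06. Decr1, a reductase for unsaturated chains, and Etfa, a subunit of the flavoprotein that takes up the electrons, had ACTH effects of 0.24 and 0.12 and DEX effects of 0.27 and 0.02. Without saline rat 8, whose Decr1 change was -0.87, the Decr1 effects were -0.0067 for ACTH and 0.023 for DEX, and without rat 1 the ACTH effect on Etfa was -0.59.

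Acsm3 encodes a mitochondrial synthetase for medium chains and had the largest DEX effect of the module. Its right DEX kidneys had 103 and 210, with 98.0 and 72.8 on the left. Right ACTH kidneys had 257 and 88.1 (left 280 and 185), and right saline kidneys had 356, 517, 69.4 and 171 (left 352, 542, 96.2 and 235). Its signal varied widely between rats in every group, and the DEX effect of 0.93 ± 0.31 (adjusted p = 0.999) was carried by a change of 1.35 in rat 7, against 0.07 in rat 3. From the right kidneys only, the DEX effect had the opposite sign, at -0.53. The ACTH effect was -0.31 ± 0.31 (adjusted p = 0.859). Acot2, a mitochondrial thioesterase, had an ACTH effect of 0.01 and a DEX effect of 0.08.

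Among the peroxisomal genes, Acaa1b, a thiolase that ends the peroxisomal round, was the only 1 of the 47 member probe sets that was higher on the right in all 8 rats (2.13%, against 2.25% of all probe sets tested), and 0 were lower on the right in all 8 (against 1.03%). Right ACTH kidneys had 404 and 545 (left 258 and 291), right DEX kidneys 482 and 682 (left 281 and 465), and right saline kidneys 337, 628, 411 and 736 (left 279, 323, 334 and 428). The changes of the 3 treatments overlapped: 0.62 and 0.87 with ACTH, 0.75 and 0.54 with DEX, and 0.26 to 0.93 with saline. Right over left, Acaa1b rose by 0.75 ± 0.18 in ACTH rats (adjusted p = 0.0368), and the values were 0.64 ± 0.18 in DEX rats (adjusted p = 0.460) and 0.56 ± 0.12 in saline rats (adjusted p = 0.478). The unadjusted p was 0.00105 in ACTH rats and 0.000671 in saline rats. Its ACTH effect over saline was 0.19 ± 0.21 (adjusted p = 0.888), and without rat 1 the right over left change in ACTH rats was 0.87 (adjusted p = 0.0604); the call was also lost without rat 3, 5 or 7.

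Ehhadh and Hsd17b4 encode the 2 bifunctional enzymes of the peroxisome, which perform the middle steps on different substrates. Ehhadh had 242 and 225 in right ACTH kidneys (left 199.8 and 229), 333 and 447 in right DEX kidneys (left 176 and 271), and 280, 390, 304 and 344 in right saline kidneys (left 258, 188, 199.9 and 247). Both right ACTH kidneys lay below every other right kidney. The ACTH effect was -0.42 ± 0.22 (adjusted p = 0.584) and the DEX effect 0.24 ± 0.22 (adjusted p = 0.999), while the right over left values were 0.78 ± 0.18 in DEX rats (adjusted p = 0.286) and 0.53 ± 0.13 in saline rats (adjusted p = 0.609), against 0.11 ± 0.18 in ACTH rats (adjusted p = 0.813).

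Hsd17b4 had 615 and 616 in right ACTH kidneys (left 773 and 974), 684 and 788 in right DEX kidneys (left 571 and 905), and 968, 771, 938 and 746 in right saline kidneys (left 909, 630, 927 and 926). Right ACTH kidneys were again the lowest of the right kidneys, and both ACTH rats lay below all saline rats in change. For ACTH rat 1 the margin was narrow, at -0.32 against -0.31 in saline rat 8. The ACTH effect was -0.51 ± 0.20 (adjusted p = 0.443) and the DEX effect 0.01 ± 0.20 (adjusted p = 0.999). The 3 other Hsd17b4 probe sets had ACTH effects of -0.52, -0.37 and -0.31, none past the threshold. In each of these 3, ACTH rat 1 lay inside the saline range, with changes of -0.22, -0.08 and 0.17. These probe sets did not share their pattern over the blocks. Of them, 1 lay at 482 to 642 in rats 1 to 4 against 242 to 368 in rats 5 to 8, and another at 103 to 212 against 222 to 358.

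**Figure D4:**
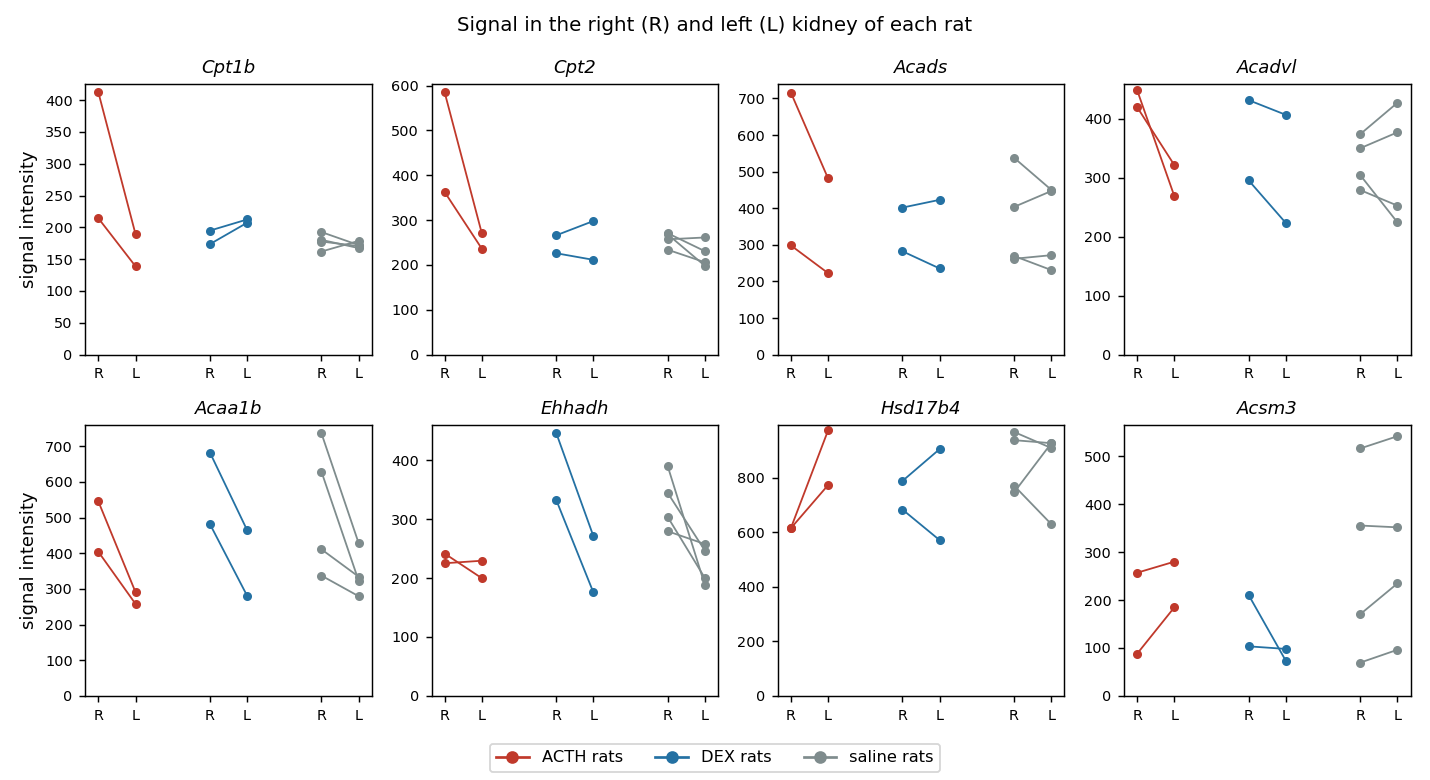
Signal intensity (linear scale from 0) in the right (R) and left (L) kidney of each rat, joined by a line, for 4 mitochondrial genes (Cpt1b, Cpt2, Acads, Acadvl), 3 peroxisomal genes (Acaa1b, Ehhadh, Hsd17b4) and Acsm3. Both ACTH rats sit highest among right kidneys for Cpt2 (585 and 363) and lowest for Hsd17b4 (615 and 616).

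Acox2, the oxidase for branched chains that opens the peroxisomal round, had 49.5 and 59.5 in right ACTH kidneys (left 66.0 and 80.2), 60.7 and 80.9 in right DEX kidneys (left 60.3 and 66.5), and 63.5, 59.0, 80.3 and 58.8 in right saline kidneys (left 72.6, 54.1, 80.5 and 86.3). Both ACTH rats were lower on the right, by changes of -0.32 and -0.35, and both lay inside the range of the saline rats (-0.45 to 0.10). The ACTH effect was -0.21 ± 0.16 (adjusted p = 0.795) and the DEX effect 0.25 ± 0.16 (adjusted p = 0.999).

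Cat encodes catalase, which breaks down the hydrogen peroxide that the oxidases release. It had 873 and 253 in right ACTH kidneys (left 704 and 335), 692 and 370 in right DEX kidneys (left 444 and 381), and 866, 696, 321 and 220 in right saline kidneys (left 691, 632, 287 and 310). Its signal separated the blocks, at 444 to 873 in rats 1 to 4 and 220 to 381 in rats 5 to 8, and so did a second probe set, at 650 to 1037 and 137 to 257. Of the 47 member probe sets, 4 lay higher in every array of rats 1 to 4 (8.51%, against 8.35% of all tested) and 2 lay lower (4.26%, against 9.94%). The ACTH effect on Cat was -0.07 ± 0.27 and the DEX effect 0.26 ± 0.27 (adjusted p = 0.971 and 0.999).

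Pex2 and Pex11a encode peroxisome assembly and division proteins. Pex2 had 79.7 and 60.8 in right ACTH kidneys (left 87.3 and 86.6), 68.3 and 63.5 in right DEX kidneys (left 59.6 and 75.7), and 84.8, 79.1, 77.7 and 81.5 in right saline kidneys (left 72.6, 69.1, 81.1 and 58.0). Its changes of -0.11 and -0.42 in ACTH rats lay below all saline rats, and the ACTH effect was -0.44 ± 0.17 (adjusted p = 0.408). Pex11a had 132 and 135 in right DEX kidneys (left 66.5 and 116), 109 and 60.1 in right ACTH kidneys (left 93.5 and 87.2), and 104, 127, 101 and 85.6 in right saline kidneys (left 180, 106, 115 and 89.2). Its DEX effect was 0.69 ± 0.26 (adjusted p = 0.999), drawn from changes of 0.85 and 0.19 in rats 3 and 7, the second of which lay within the saline range. The other Pex11a probe set did not repeat the large change of rat 3. Its changes were 0.18 and 0.20 in rats 3 and 7, against -0.34 to 0.10 in saline rats. The DEX effect on Pex11a was 1.09 in rats 1 to 4 and 0.29 in rats 5 to 8, each from 1 DEX rat and 2 saline rats; in saline rat 2 the left kidney (180) was the highest of all. Amacr, a racemase for branched chains, and Scp2, a sterol carrier and thiolase, had ACTH effects of -0.16 and -0.01 and DEX effects of 0.16 and -0.03.

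The long chain acyl-CoA synthetases activate fatty acids at the outset. Acsl1, the main form of fat and liver, had 523 and 281 in right ACTH kidneys (left 271 and 208), 325 and 326 in right DEX kidneys (left 278 and 267), and 243, 364, 208 and 329 in right saline kidneys (left 215, 267, 246 and 230). ACTH rat 1 exceeded all other arrays, and ACTH rat 5 lay inside the saline rats. The ACTH effect was 0.44 ± 0.22 (adjusted p = 0.550), and the DEX effect was 0.03. The ACTH effect was 0.19 without rat 1 and -0.03 with the fat score as a covariate. Another Acsl1 probe set had changes of 1.34 and 0.36 with ACTH, 1.12 and 0.52 with DEX, and -0.18 to 0.80 with saline. A further Acsl1 probe set had 1.70 and 0.19 with ACTH, 0.60 and 0.65 with DEX, and -0.34 to 1.12 with saline. Acsl5, another long chain form, had 420 and 253 in right ACTH kidneys (left 269 and 264), 180 and 220 in right DEX kidneys (left 217 and 256), and 198, 187, 269 and 208 in right saline kidneys (left 193, 180, 272 and 237). Both DEX rats lay below the saline rats in change, at -0.25 and -0.20. At the second Acsl5 probe set the DEX changes were -0.08 and -0.19, inside the saline range of -0.20 to 0.07. The DEX effect at the first was -0.20 ± 0.19 (adjusted p = 0.999). That of ACTH was 0.30 ± 0.19 (adjusted p = 0.682), and -0.03 without rat 1.

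Acsl3 and Acsl4 are further synthetases, Acsl4 with a preference for arachidonic acid. Acsl3 had 202 and 179 in right DEX kidneys (left 133 and 131), 148 and 71.8 in right ACTH kidneys (left 139 and 103), and 138, 192, 87.9 and 151 in right saline kidneys (left 121, 181, 119 and 144). Acsl4 had 126 and 114 in right DEX kidneys (left 97.6 and 106), 111 and 57.3 in right ACTH kidneys (left 144 and 86.9), and 132, 108, 59.1 and 103 in right saline kidneys (left 126, 109, 95.5 and 97.3). Both DEX rats lay above all saline rats in change for each gene, for Acsl4 narrowly (0.09 in DEX rat 7 against 0.07 in saline rat 8). At the second Acsl4 probe set they did not, with DEX changes of 0.72 and 0.06 against -0.51 to 0.57 in saline rats. The DEX effects were 0.50 ± 0.19 for Acsl3 and 0.32 ± 0.19 for Acsl4, both with an adjusted p of 0.999. The ACTH effects were -0.16 ± 0.19 (adjusted p = 0.898) and -0.30 ± 0.19 (adjusted p = 0.692).

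Acot1, a cytosolic thioesterase that reverses activation, had 283 and 310 in right ACTH kidneys (left 384 and 291), 296 and 243 in right DEX kidneys (left 206 and 233), and 249, 271, 313 and 158 in right saline kidneys (left 229, 189, 246 and 209). The groups overlapped, with an ACTH effect of -0.31 ± 0.24 (adjusted p = 0.797) and a DEX effect of 0.13 ± 0.24 (adjusted p = 0.999). Fabp3, the heart form of the fatty acid binding protein, had 1089 and 1671 in right ACTH kidneys (left 969 and 1257), 1180.2 and 1140.0 in right DEX kidneys (left 1001 and 1175), and 1167, 1207, 1049 and 1169.6 in right saline kidneys (left 1006, 1040.0, 1151 and 1085). Rat 5 had the highest right kidney value, and the ACTH effect was 0.19 ± 0.17 (adjusted p = 0.834).

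**Figure D5:**
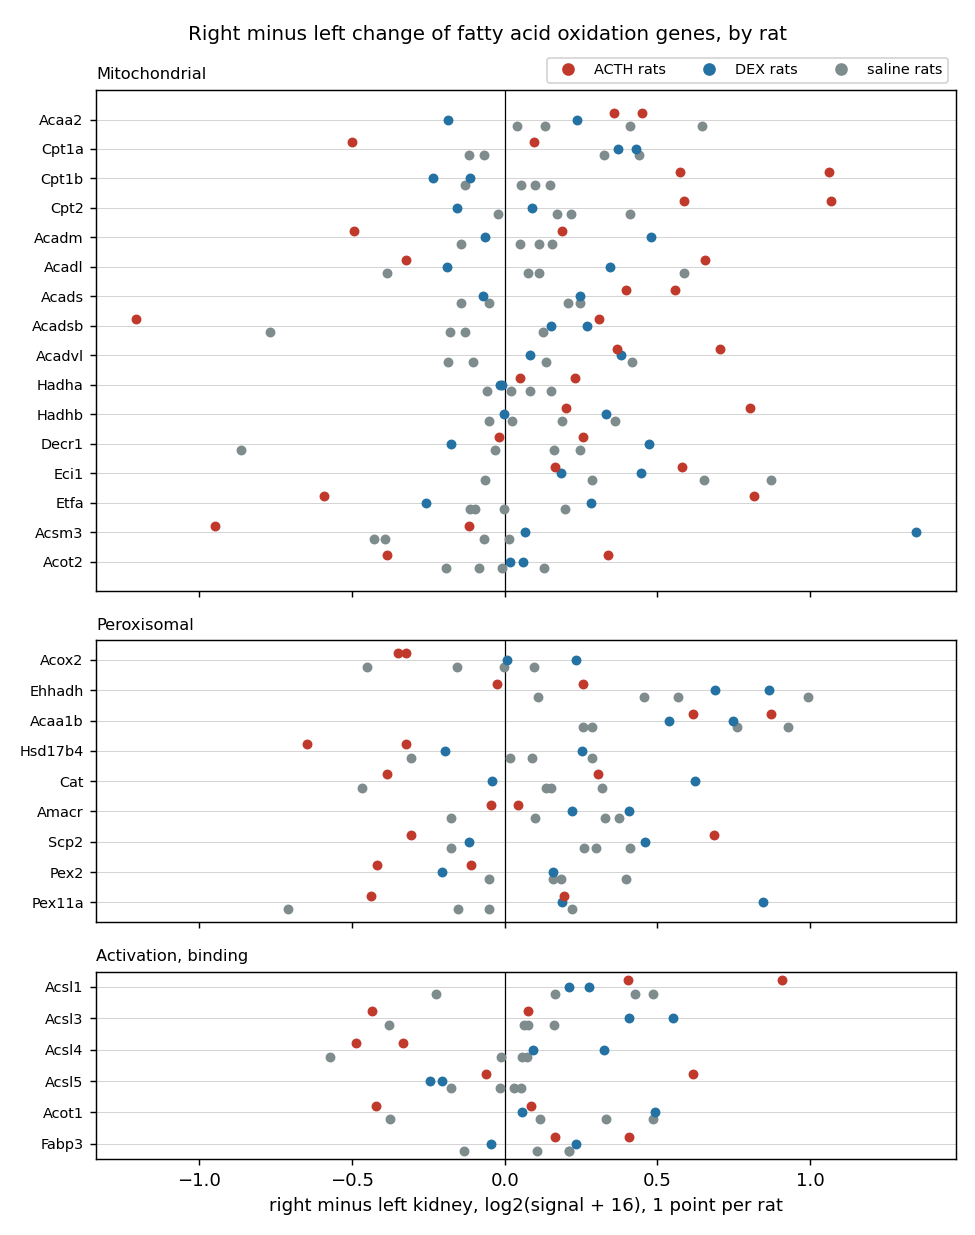
Right minus left change (log2 of signal + 16, horizontal axis) of the 31 tested genes in each rat, 1 point per rat, by group and coloured by treatment. In Acaa1b all 8 points lie right of 0, and in Cpt1b and Cpt2 both ACTH rats lie beyond all other rats.

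Ppara and the liver binding protein gene Fabp1 were dim on this array and entered no test. Ppara had 50.1 and 68.2 in right ACTH kidneys, 52.8 and 65.5 in right DEX kidneys, 44.7, 47.4, 68.6 and 79.1 in right saline kidneys, and 45.6 to 79.6 with a median of 61.1 in left kidneys. Its treatment groups overlapped throughout, whereas its blocks did not, at 44.7 to 56.8 in rats 1 to 4 and 65.4 to 79.6 in rats 5 to 8. The mean signal of Ppara was 60.2, against 17.7 for Fabp1. Fabp1 lay between 14.8 and 23.8 in all 16 kidneys, Acsl6 between 12.5 and 22.1, and Hadh between 25.0 and 44.7.

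Of 122 other genes of the pathway, 58 were on the array and 51 were tested. None passed the threshold for the ACTH effect (35 positive, 16 negative, median 0.09), the DEX effect (27 positive, 24 negative, median 0.00) or their difference. At an unadjusted p under 0.05, 6 passed for ACTH (11.8%, against 8.74% of the 3193 genes tested), 2 for DEX (3.92%, against 2.69%) and 6 for the difference (11.8%, against 12.2%). The smallest unadjusted p for ACTH belonged to Slc22a5, the carnitine importer, at -0.60 ± 0.19 (adjusted p = 0.247). Its changes were -0.71 and -0.54 in ACTH rats, against -0.32 to 0.28 in saline rats. Next was Slc27a1, a fatty acid transporter of fat and muscle, at 0.51 ± 0.17 (adjusted p = 0.292), with changes of 0.56 and 0.62 against -0.14 to 0.38. For DEX it was Ppard, the gene of a related receptor, at -0.51 ± 0.21 (adjusted p = 0.999), with changes of -0.43 in both rats against -0.15 to 0.56.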

How the data were processed

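Total kidney RNA was purified and labelled with biotin, per the labels' protocols, starting from 5 to 8 µg. The authors deposited 1 signal intensity per probe set and array on a linear scale. The software and normalization behind it: not given in the sources used here. No deposited column was left unused. The arrays were not normalized again. Of 8740 probe sets that are not controls, the 40% with the lowest mean log2(intensity + 16), 3496, were left out. Genes were named from the platform's annotation, which assigns a single symbol to 7006 probe sets, more than 1 to 308 and no symbol to 1426.

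Each probe set was fitted with limma 3.58.1 in R 4.3.3, with rat as a block, a right kidney term and ACTH and DEX terms in the right kidney, tests two-sided, and an intensity trend in the variance. There were 5 residual degrees of freedom and a prior of 7.34. The left kidney is paired with the right of the same rat by the titles. Their deviations from the group means correlated at 0.55 to 0.71 in all 8 rats. The median correlation with other rats was -0.37, but only in 3 of 8 pairs was the own rat the best match. The part of the blocks of rats in these correlations was not tested. On simulated data, 86% of 200 probe sets changed by 1 log2 unit in an ACTH contrast were recovered. The number of arrays limits the precision.

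The members, lists and tests were chosen with earlier results of these data known. Each gene stands for its probe set with the highest mean log2 value. Values in every array are given for members past the threshold in any comparison, for the 4 smallest p in each group for each hormone effect, and for Cpt1a, Cpt1b, Ppara, Fabp1, Fabp3, Acsm3 and Cat. Where left kidneys are summarised, their lowest, median and highest values are given. Alternatives were quantile normalization, other pseudocounts and filters, no block, right kidneys only, either block of rats, a fat covariate, and each rat left out.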

Additional observations from a re-analysis of the deposited data

Results flagged for a closer look

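In the right kidneys of the saline rats, the signal of Decr1 was 258 in rat 8, against 638 to 720 in the other saline rats, a gap large enough to stand out within 4 samples. The second Decr1 probe set was also lowest in that kidney, at 118. Without rat 8 the Decr1 ACTH effect was -0.0067 and the DEX effect 0.023. Of 62 groups of samples looked at, 1 was marked in this way, and chance marks about 1 in 20. The ACTH and DEX effects on Cpt1b differed by 0.99 on the log2 scale by the test of the difference (limma, adjusted p = 0.0489), with both ACTH rats higher on the right and both DEX rats lower on the right. With the fat marker score as covariate the difference was 0.38 (adjusted p = 0.617).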

How the results depend on the processing

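The design has 2 rats per hormone, so single rats weigh heavily. In ACTH rats the right over left calls of Cpt1b, Cpt2 and Acaa1b were lost without rat 1 and in rats 5 to 8 alone. They were also lost with the fat score as covariate and without the rat block. The changes themselves stayed positive, at 0.57, 0.59 and 0.87 without rat 1 and 0.82, 0.83 and 0.75 without the block. Each gene was run in 17 or 18 alternatives. The sign of the ACTH effect held in all of a gene's own alternatives for 12 of the 31 genes, and that of the DEX effect for 10. Whether the deposited normalization affects the values was not tested.

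The kidneys are paired within rats. With no replicate block, 0 probe sets passed for the ACTH effect and 0 for ACTH minus DEX (members 0), and 4 passed right over left in ACTH rats (members 0). The right kidneys alone gave 0 calls for the ACTH effect and 0 for ACTH minus DEX (members 0), with a median ACTH effect of 0.29 for mitochondrial and 0.26 for activation genes.

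In rats 1 to 4 alone, with 1 rat per hormone assumed to vary like the saline rats, 296 probe sets passed for ACTH (members 7), 40 for DEX (1), 255 for ACTH minus DEX (8), and right over left 443 in ACTH (15), 178 in DEX (8) and 72 in saline rats (5); the mitochondrial median ACTH effect was 0.31. In rats 5 to 8 alone there were 0 calls for ACTH, 0 for ACTH minus DEX (members 0) and 0 right over left in ACTH rats (members 0), and the peroxisomal median ACTH effect was -0.34. With the fat score as covariate, 7 passed for ACTH, 3 for ACTH minus DEX (members 0) and 4 right over left in saline rats. The right over left changes of Cpt1b, Cpt2 and Acaa1b in ACTH rats did not pass there. Whether members passed more often than all probe sets in either block of rats was not tested.

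Quantile normalization gave 12 calls for ACTH. The call of the Cpt1b difference between ACTH and DEX was lost (members 0) under quantile normalization, a pseudocount of 64 and no filter on dim probe sets. Right over left in saline rats, 1 probe set passed under quantile normalization, a pseudocount of 1, no filter and a filter on the dimmest 60%. That last filter gave a median ACTH effect of 0.19 for activation genes, with fewer genes tested.

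With each rat left out in turn, ACTH calls ran from 9 to 114 (members 0 to 3), DEX calls from 0 to 3, ACTH minus DEX calls from 2 to 100 (members 0 to 3), and right over left calls from 119 to 272 in ACTH rats (members 1 to 7), 0 to 4 in DEX rats and 0 to 1 in saline rats. Median ACTH effects ran from 0.025 to 0.38 for mitochondrial, -0.42 to -0.086 for peroxisomal and -0.07 to 0.08 for activation genes, and median DEX effects from -0.12 to 0.23, -0.019 to 0.25 and -0.0099 to 0.24. The cause of these shifts was not tested. Nor was it tested whether members passed more often than all probe sets when a rat was left out.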
